A study of Mus musculus with 4 samples.

Results

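The transforming growth factor beta (TGF-beta) pathway of mouse bone marrow derived macrophages was described through 10 genes: the ligand Tgfb1, the receptors Tgfbr1 and Tgfbr2, the SMAD transducers Smad2, Smad3 and Smad4, the inhibitory SMAD Smad7, the corepressors Ski and Skil, and the induced matrix protein gene Tgfbi. They were matched by symbol to a fixed list of names, with transcript rows summed per symbol. All 10 had an entry among the 22026 genes of the deposited tables, and all 10 passed the minimum mean of 1 FPKM that left 11851 genes for testing. FPKM are fragment counts put on a per-kilobase and per-million scale.

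RNA was compared between 2 libraries of RBP-J KO macrophages and 2 libraries of WT macrophages, all on the C57BL/6 strain. The RBP-J KO mice carried floxed Rbpj alleles with LysM cre (Rbpj f/f;LysM cre), so that the gene is removed where the lysozyme M promoter drives Cre, in myeloid cells. The WT mice are labelled as wildtype controls, and the labels do not say whether they carried Cre or floxed alleles. Marrow of mice aged 8 weeks was grown for 3 days in a supernatant equivalent to 20 ng/ml of M-CSF, the macrophage growth factor. The series examined which mRNA levels RBP-J, the DNA-binding partner of Notch receptors, regulates in these cells. The libraries of equal replicate number are called pair 1 and pair 2 below. No label says that a pair shares a mouse, a litter or a day, or that the replicates came from separate mice, so p-values speak only to how far these libraries vary, some of which may be technical.

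TGF-beta is secreted in a latent form. Once released, it binds the type 2 receptor TGFBR2, which recruits and phosphorylates the type 1 receptor TGFBR1. TGFBR1 then phosphorylates SMAD2 and SMAD3, which join SMAD4 and enter the nucleus. SMAD7 blocks the receptor, SKI and SKIL block the SMADs on chromatin, and the genes of SMAD7 and SKIL are themselves switched on by the pathway. In macrophages TGF-beta restrains inflammatory activation and maintains tissue-resident programmes such as that of microglia.

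Summed FPKM lay between 2125327 and 2389348 per library, and the number of reads behind the values is unknown. The file headers name no unit and the scale could not be checked, so levels of different genes are compared only as the per-length values the files give. Rbpj itself was at 51.5 and 77.0 FPKM in the RBP-J KO libraries of pairs 1 and 2, against 355 and 573 FPKM in the WT libraries. The macrophage markers Csf1r, Emr1, Cd68, Itgam, Lyz2, Fcgr1 and Mertk were all above 0 in all 4 libraries. They summed to 18327 and 11757 FPKM in RBP-J KO, against 15119 and 13835 FPKM in WT. Of these 7 markers, 5 were higher in RBP-J KO in pair 1 and 2 in pair 2. Cd68 and Lyz2 were lower in both pairs, with Lyz2 at 94.3 and 115 FPKM in RBP-J KO, against 218 and 192 FPKM in WT. Lyz2 encodes lysozyme M, whose promoter drives Cre in the RBP-J KO mice. The part of the Cre allele in the lower Lyz2 values was not tested. The 12 neutrophil markers summed to 8720 and 1201 FPKM in RBP-J KO replicates 1 and 2, against 7369 and 374 FPKM in WT replicates 1 and 2. S100a8, S100a9 and Ngp make up most of these sums. Singly, 9 of the 12 were higher in RBP-J KO than in WT in pair 1, the others being Ngp, Ltf and Mmp8, and 12 of 12 were in pair 2. Replicate 1 was above replicate 2 for 11 of 12 in RBP-J KO, the exception being Mmp8, and for 12 of 12 in WT. Dendritic cell markers summed to 84.4 and 18.2 FPKM in RBP-J KO, against 12.8 and 11.4 FPKM in WT. Fibroblast and stromal markers summed to between 0 and 12.3 FPKM in any library, with Dcn, Lum and Pdgfra listed at 0 in all 4, and the erythroid, B cell and T cell lists each summed to 16.5 FPKM or less. The 6 megakaryocyte and platelet markers summed to 2823 and 4325 FPKM in RBP-J KO and 3513 and 3031 FPKM in WT, of which Pf4, which macrophages also express, gave 2478, 4297, 3031 and 3015 FPKM. The Y-linked Ddx3y had 174 FPKM in RBP-J KO replicate 1 and 193 FPKM in WT replicate 1 but was listed at 0 in both replicate 2 libraries, so the replicate numbers differ in the sex of the mice as well as in summed neutrophil markers.

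Smad3, a transducer, and the receptor gene Tgfbr1 were at least 1.5-fold higher in RBP-J KO in both pairs, whereas Smad2, Smad4, Tgfbr2 and Tgfb1 differed by less than 1.5-fold in each pair. None of these differences passed limma with Benjamini-Hochberg adjustment. At an adjusted p of 0.05 it called 0 of the 10 members and 0 of all 11851 genes (0%), with 1 member, Smad3, among the 524 genes (4.42%) at an unadjusted p under 0.05. The count of members at least 1.5-fold different with the same sign in both pairs was 2 of 10, where 887 of all genes tested (7.48%) met the same rule. Members higher in RBP-J KO in both pairs numbered 5 (all genes, 25.1%) and members lower in both numbered 3 (all genes, 34.1%). Both RBP-J KO libraries lay above both WT libraries for 2 members (all genes, 11.7%) and below them for 1 (all genes, 18.2%). The median log2 difference was 0.18 over the 10 members, with 0.50 in pair 1 and 0.11 in pair 2, beside -0.05 over all genes tested, with -0.05 in pair 1 and -0.02 in pair 2.

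**Figure D1:**
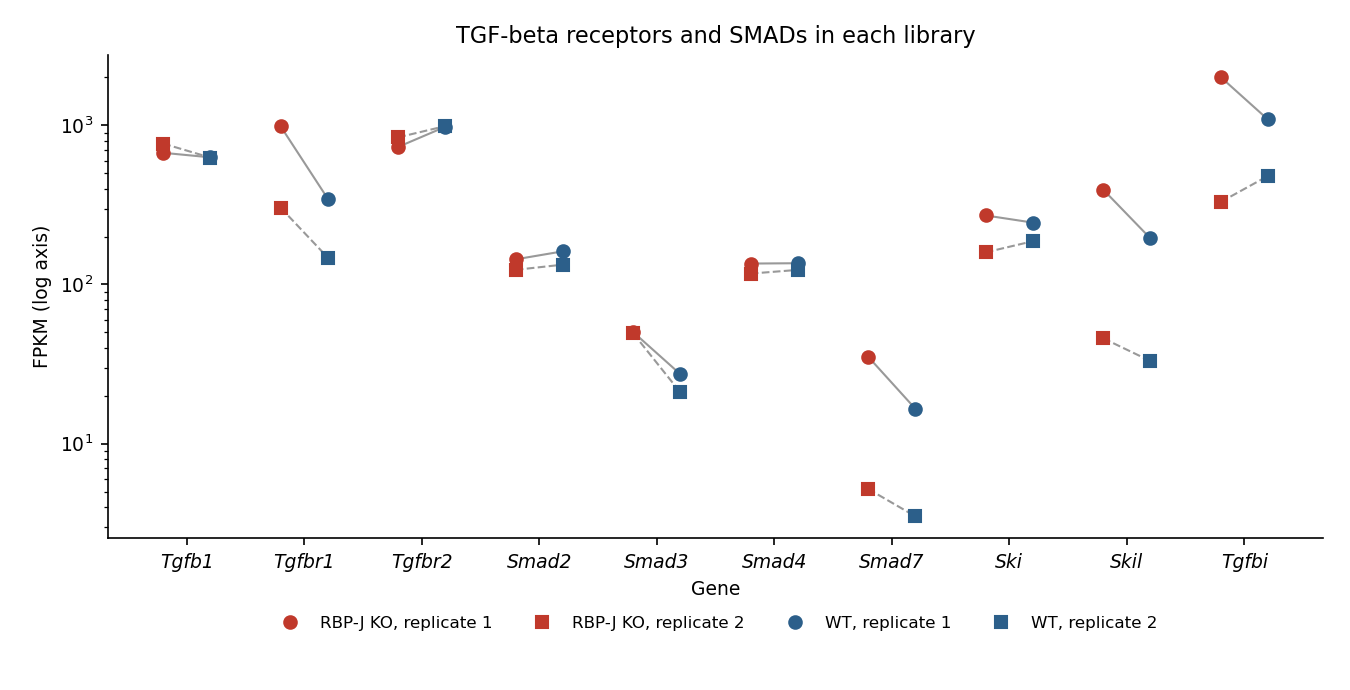
FPKM of the 10 genes in each library on a log axis, RBP-J KO in red left of WT in blue, with circles for replicate 1, squares for replicate 2 and lines joining libraries of equal replicate number. Smad3 is near 50 FPKM in both RBP-J KO libraries and below 28 FPKM in both WT libraries, while Tgfbr1, Smad7, Skil and Tgfbi are separated more by replicate number than by genotype.

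Smad3 and Tgfbr1 are the members whose difference held 1.5-fold in both pairs, and the promoters that carry their start sites are shown for that reason. The sequences are those of RefSeq on GRCm38.p6, a later build than the mm9 used for the files, and each runs from 250 bases before to 50 bases after the annotated start on the gene's own strand. The Smad3 window is chr9:63757945-63758244 on the minus strand and the Tgfbr1 window, the more upstream of 2 in the table, is chr4:47352972-47353271 on the plus strand. Capitals mark TGGGAA, the core of the site that RBP-J binds.
Smad3: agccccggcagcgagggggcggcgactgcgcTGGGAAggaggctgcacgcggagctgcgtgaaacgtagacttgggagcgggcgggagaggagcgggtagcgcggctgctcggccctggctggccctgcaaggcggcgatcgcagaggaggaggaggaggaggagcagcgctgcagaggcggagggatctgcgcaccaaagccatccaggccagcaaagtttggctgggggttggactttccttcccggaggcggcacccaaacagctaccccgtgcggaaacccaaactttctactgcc
Tgfbr1: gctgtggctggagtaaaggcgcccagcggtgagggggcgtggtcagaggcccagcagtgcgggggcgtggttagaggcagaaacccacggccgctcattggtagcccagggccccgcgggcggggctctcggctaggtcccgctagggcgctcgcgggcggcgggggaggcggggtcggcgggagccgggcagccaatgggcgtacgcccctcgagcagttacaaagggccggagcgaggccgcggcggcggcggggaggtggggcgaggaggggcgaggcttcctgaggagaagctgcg

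The Smad3 window held TGGGAA once, at position -219 relative to the start, and the Tgfbr1 window held it on neither strand. Of 32851 RefSeq promoters of this length, 25.6% held TGGGAA or its reverse complement TTCCCA. The longer form GTGGGAA contains TGGGAA and was in 6.38% of all promoters on either strand. It was in none of the 7 promoters searched, which belong to 6 members (Tgfb1, Tgfbr1, Tgfbr2, Smad3, Ski and Tgfbi). Promoters of Smad2, Smad4, Smad7 and Skil were not searched. The SMAD-binding box CAGAC, searched on both strands as CAGAC and GTCTG, was in 49.6% of all promoters. It was found in the Tgfbr2 window at position -160, in the Tgfbi window at positions -239 and -85 and in the second Tgfbr1 window at position -203, but in neither sequence shown. The SMAD palindrome of 8 bases, GTCTAGAC, occurs in 0.213% of all promoters and in none of the 7 searched, which do not include that of Smad7. These matches describe letters in these windows and show no binding.

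The ligand gene Tgfb1 was expressed at a like level in all libraries. It was at 672 and 767 FPKM in RBP-J KO, against 629 and 627 FPKM in WT. The 2 RBP-J KO values were above both WT values, by 1.07-fold in pair 1 and 1.22-fold in pair 2. The log2 difference over all libraries was 0.19 (SE 0.18, limma adjusted p = 0.999, Benjamini-Hochberg), with a 95% interval from -0.29 to 0.67.

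The type 1 and type 2 receptor genes went opposite ways in both pairs. Tgfbr1 was at 983 and 303 FPKM in RBP-J KO, against 346 and 148 FPKM in WT. It was higher by 2.83-fold in pair 1 and by 2.05-fold in pair 2. Counting only genes higher in RBP-J KO, 210 of the genes tested (1.77%) had a larger value of the smaller of these pair differences. The groups overlapped, because WT replicate 1 was above RBP-J KO replicate 2. The log2 difference of Tgfbr1 was 1.27 (SE 0.71, limma adjusted p = 0.999, Benjamini-Hochberg), and it was 0.42 without RBP-J KO replicate 1 and 2.11 without RBP-J KO replicate 2. Its spread between replicates was of the size of its difference between genotypes, since replicate 1 was 3.24-fold above replicate 2 in RBP-J KO and 2.34-fold in WT. The log2 difference was 0.66 without WT replicate 2 and 1.88 without WT replicate 1.

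Tgfbr2 was at 731 and 840 FPKM in RBP-J KO, against 978 and 988 FPKM in WT. Both RBP-J KO libraries were below both WT libraries, which lay within 1% of each other. Tgfbr2 averaged 786 ± 76.9 FPKM in RBP-J KO and 983 ± 6.84 FPKM in WT (SD, n = 2), 1.25-fold lower in RBP-J KO, with a log2 difference of -0.33 (SE 0.18, limma adjusted p = 0.999, Benjamini-Hochberg). In replicate 2, where the files give transcripts, the isoform that the files name isoform 2 carried most of the Tgfbr2 value, at 575 FPKM in RBP-J KO and 720 FPKM in WT. Isoform 1, which differs from it in the extracellular part, was at 265 FPKM in RBP-J KO and 267 FPKM in WT, or 31.5% and 27.1% of the Tgfbr2 value. The lower Tgfbr2 value of pair 2 was thus one of isoform 2, in 1 library per genotype and without a replicate.

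Within a library, the ratio of Tgfbr1 to Tgfbr2 does not depend on how that library was scaled. It was 1.34 and 0.361 in RBP-J KO, against 0.354 and 0.149 in WT, or higher by 3.80-fold in pair 1 and by 2.41-fold in pair 2. In RBP-J KO replicate 1 alone the Tgfbr1 value exceeded that of Tgfbr2. The ratio of RBP-J KO replicate 2 was close to that of WT replicate 1, so the groups lay apart by little.

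Among the receptor-activated SMADs, Smad3 was higher in both RBP-J KO libraries than in both WT libraries, whereas Smad2 was slightly lower inside each pair. Smad3 was at 50.2 and 49.3 FPKM in RBP-J KO, against 27.4 and 21.0 FPKM in WT. The groups did not overlap, and the 2 RBP-J KO libraries differed by less than 2%. Smad3 was higher by 1.81-fold in pair 1 and by 2.28-fold in pair 2. Of the genes tested, 267 (2.25%) had a larger value of the smaller of the pair differences, counting only genes higher in RBP-J KO. The log2 difference was 1.02 (SE 0.23, 95% interval 0.40 to 1.64), the smallest p among the members, with a limma adjusted p of 0.712 (Benjamini-Hochberg over all genes). It lay between 0.84 and 1.20 when any single library was left out, where the Smad3 adjusted p lay between 0.763 and 0.9998. Unlike Tgfbr1, Smad3 differed little between replicates of a genotype, by 1.02-fold in RBP-J KO and 1.29-fold in WT.

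Smad2 was at 144 and 124 FPKM in RBP-J KO, against 161 and 133 FPKM in WT. It was lower in RBP-J KO in both pairs by 1.1-fold over all libraries, and the groups overlapped. The log2 difference of Smad2 was -0.14 (SE 0.21, 95% interval -0.69 to 0.41, limma adjusted p = 0.999). The ratio of Smad3 to Smad2 was 0.349 and 0.399 in RBP-J KO, against 0.169 and 0.158 in WT. This ratio did not overlap between the genotypes and was higher by 2.06-fold in pair 1 and by 2.52-fold in pair 2. Smad2 nonetheless had the higher level of both genes in all 4 libraries.

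Smad4, the shared partner of all receptor-activated SMADs, was at 135 and 117 FPKM in RBP-J KO, against 136 and 123 FPKM in WT. The log2 difference was -0.04 (SE 0.19, 95% interval -0.55 to 0.47, limma adjusted p = 0.999), a sign that turned under upper-quartile scaling and quantile normalization. The replicates of each genotype differed more than the genotypes did within a pair. Smad2 and Smad4 were at nearly equal levels throughout, the ratio of Smad2 to Smad4 being 1.06 and 1.06 in RBP-J KO and 1.19 and 1.08 in WT.

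**Figure D2:**
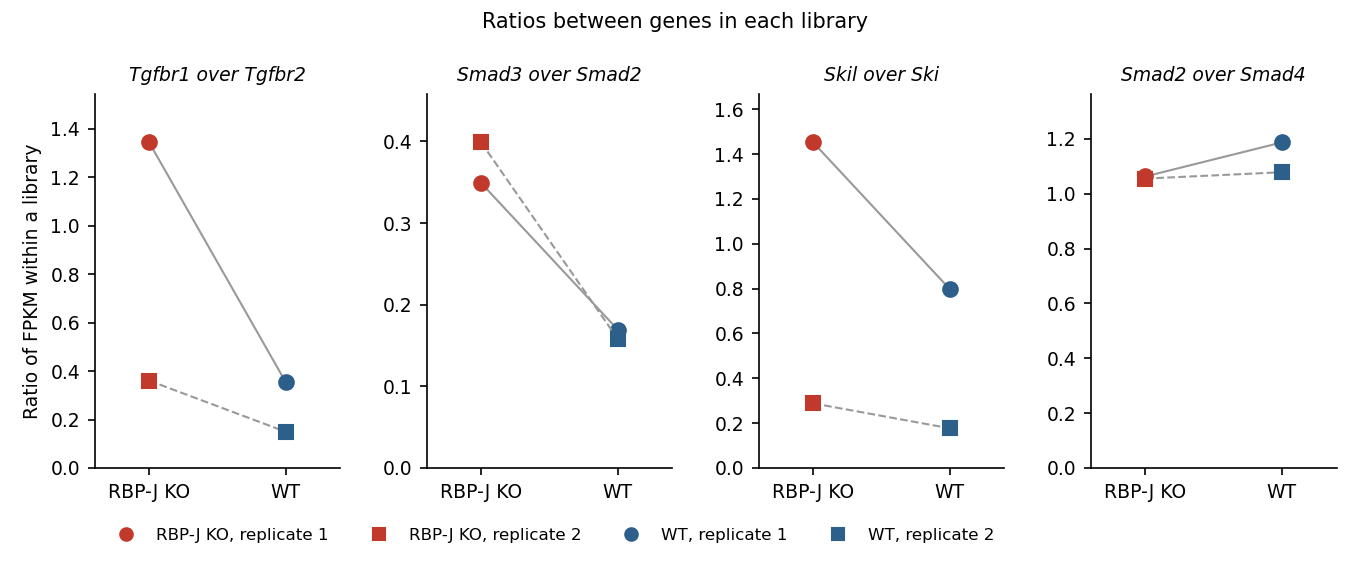
Ratio of the FPKM of 2 genes within each library, RBP-J KO in red left of WT in blue, circles for replicate 1 and squares for replicate 2, with each vertical axis starting at 0. The ratio of Smad3 to Smad2 separates the genotypes (0.349 and 0.399 in RBP-J KO, 0.169 and 0.158 in WT), the ratios of Tgfbr1 to Tgfbr2 and of Skil to Ski are higher in RBP-J KO inside each pair, and that of Smad2 to Smad4 stays between 1.06 and 1.19.

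The feedback genes Smad7 and Skil, which the pathway itself induces, had nearly the same differences. Smad7 was at 35.1 and 5.19 FPKM in RBP-J KO, against 16.6 and 3.50 FPKM in WT. It was higher by 2.05-fold in pair 1 and by 1.38-fold in pair 2. Skil was at 394 and 45.9 FPKM in RBP-J KO, against 195 and 33.1 FPKM in WT, or higher by 2.01-fold in pair 1 and by 1.38-fold in pair 2. Both genes were thus higher in RBP-J KO inside each pair, but their groups overlapped, because both replicate 1 libraries lay far above both replicate 2 libraries. Replicate 1 exceeded replicate 2 by 5.83-fold in RBP-J KO and 3.91-fold in WT for Smad7, and by 8.43-fold and 5.76-fold for Skil.

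With that spread the log2 differences over all libraries were 0.75 for Smad7 (SE 1.10, 95% interval -2.17 to 3.67) and 0.73 for Skil (SE 1.33, 95% interval -2.81 to 4.28), both with a limma adjusted p of 0.999. They turned negative without RBP-J KO replicate 1 (-0.52 for Smad7 and -0.80 for Skil) or without WT replicate 2 (-0.23 and -0.53). Without WT replicate 1 they were 1.73 for Smad7 and 2.0 for Skil. Without RBP-J KO replicate 2 they were 2.02 for Smad7 and 2.27 for Skil. In replicate 2, the Skil transcript that the files name isoform b carried 75.0% of the Skil value in RBP-J KO and 74.9% in WT, at 34.4 FPKM and 24.8 FPKM.

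Ski, the sister corepressor of Skil, was at 271 and 159 FPKM in RBP-J KO, against 245 and 187 FPKM in WT. It was 1.11-fold higher in pair 1 and lower in pair 2, with a log2 difference of -0.04 over all libraries (SE 0.33, 95% interval -0.92 to 0.84, limma adjusted p = 0.999), whose sign turned under upper-quartile scaling and quantile normalization. The ratio of Skil to Ski was 1.45 and 0.288 in RBP-J KO, against 0.798 and 0.177 in WT. It was higher by 1.82-fold in pair 1 and by 1.63-fold in pair 2, and WT replicate 1 lay above RBP-J KO replicate 2.

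Tgfbi, which encodes a secreted matrix protein named for its induction by TGF-beta, had opposite differences in the pairs. It was at 2006 and 330 FPKM in RBP-J KO, against 1089 and 480 FPKM in WT. It was 1.84-fold higher in RBP-J KO in pair 1 and at 0.688 of the WT value in pair 2. The log2 difference of Tgfbi was 0.17 (SE 0.96, 95% interval -2.39 to 2.73, limma adjusted p = 0.999), with -1.13 without RBP-J KO replicate 1, -0.42 without WT replicate 2, 0.76 without WT replicate 1 and 1.47 without RBP-J KO replicate 2. Tgfbi had the highest value of any member in a single library and, with Ski, was 1 of 2 members whose sign differed between the pairs.

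In 4 of the 10 members, Tgfbr1, Smad7, Skil and Tgfbi, replicate 1 was at least 1.5-fold above replicate 2 in both genotypes, as for 1016 of all genes tested (8.57%). The summed neutrophil markers, carried mostly by S100a8, S100a9 and Ngp, were 7.26-fold higher in replicate 1 than in replicate 2 in RBP-J KO and 19.7-fold higher in WT. The same sum was 1.18-fold higher in RBP-J KO than in WT in pair 1 and 3.21-fold higher in pair 2, although Ngp, Ltf and Mmp8 were lower in RBP-J KO in pair 1. Dendritic cell markers summed higher in RBP-J KO than in WT in both pairs as well. In pair 2 that sum was mostly Batf3, at 15.4 FPKM in RBP-J KO and 10.3 FPKM in WT. Singly, 7 of the 7 dendritic cell markers were higher in RBP-J KO in pair 1 and 4 in pair 2. The part of neutrophils or dendritic cells in the values of Tgfbr1, Smad7, Skil, Tgfbi and Smad3 was not tested. In bulk RNA, fewer cells of a type and less RNA per cell cannot be told apart.

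**Figure D3:**
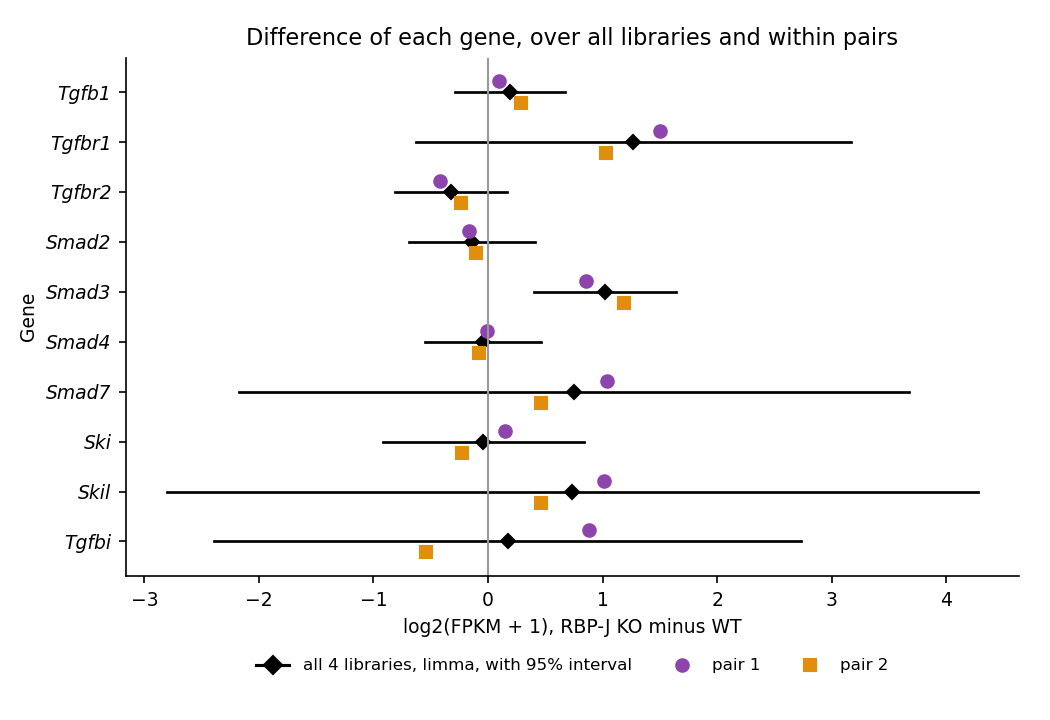
Difference in log2(FPKM + 1), RBP-J KO minus WT, for each gene: black diamonds with the 95% interval from limma over all 4 libraries, purple circles for pair 1 and orange squares for pair 2. The interval of Smad3 (0.40 to 1.64) is the one that does not reach 0 before adjustment, and those of Smad7, Skil and Tgfbi span several log2 units.

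By mean level, the order in RBP-J KO was Tgfbi, Tgfbr2, Tgfb1, Tgfbr1, Skil, Ski, Smad2, Smad4, Smad3 and Smad7. In WT it was Tgfbr2, Tgfbi, Tgfb1, Tgfbr1, Ski, Smad2, Smad4, Skil, Smad3 and Smad7. Smad3 and Smad7 were thus the lowest in both genotypes. In RBP-J KO, the ranges of neighbours in this order were apart only between Ski and Smad2, Smad4 and Smad3, and Smad3 and Smad7. In WT they were apart between Tgfb1 and Tgfbr1, Ski and Smad2, Skil and Smad3, and Smad3 and Smad7. All other neighbours overlapped over the 2 libraries.

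**Figure D4:**
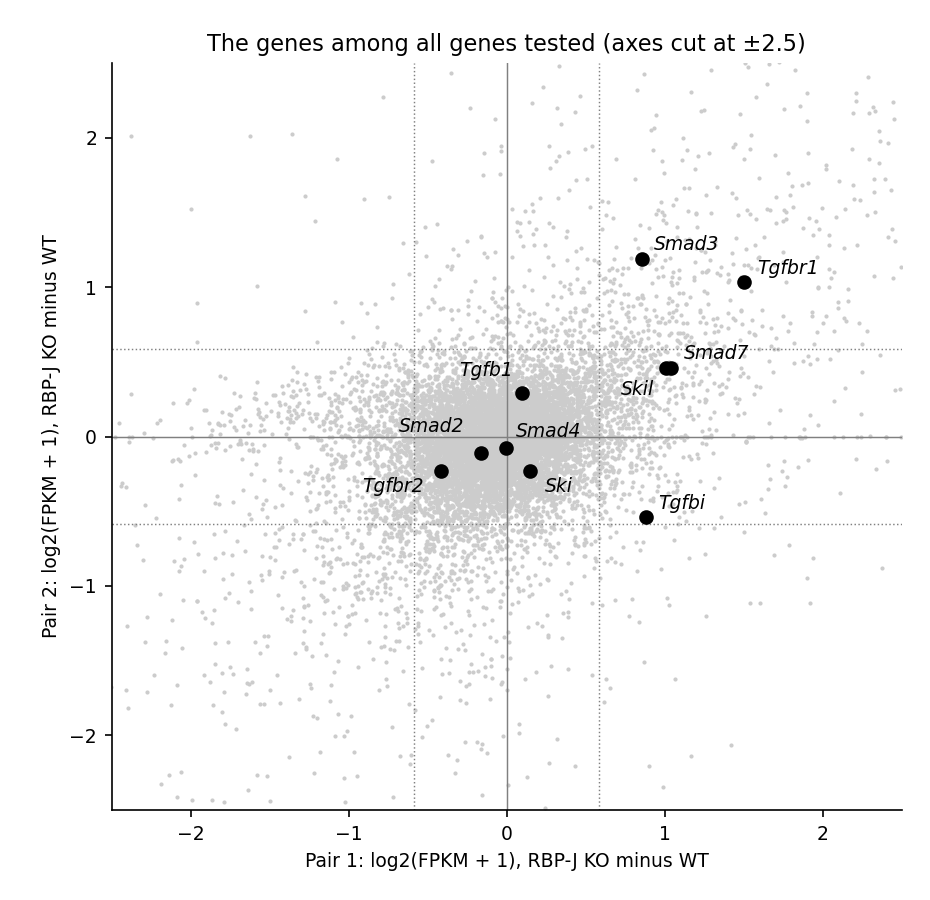
Difference in log2(FPKM + 1), RBP-J KO minus WT, in pair 1 (horizontal) and pair 2 (vertical), with all genes tested in grey, the 10 genes in black, and dotted lines at 1.5-fold. Smad3 and Tgfbr1 lie beyond the lines in both pairs, Smad7 and Skil in pair 1, and Tgfbi is up in pair 1 and down in pair 2; points beyond the ends of the axes are not drawn.

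The genes whose values over the 4 libraries were most like those of each of these 2 members were found by the Euclidean distance between log2(FPKM + 1) values centred over the libraries. For Smad3 they were Cd300a, an inhibitory receptor of myeloid cells (distance 0.11), 9330175E14Rik (0.13) and Vps37b, a subunit of the ESCRT-I sorting complex (0.15). Cd300a was at 367 and 348 FPKM in RBP-J KO, against 186 and 158 FPKM in WT. For Tgfbr1 they were Ifit1, an interferon-induced antiviral gene (0.20), Rgs1, a regulator of G protein signalling (0.20), and Bcl2a1a, an inhibitor of apoptosis (0.25). Ifit1 was at 438 and 121 FPKM in RBP-J KO, against 155 and 71.8 FPKM in WT.

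Beyond the 10 members, 6 lists of pathway genes held 86 symbols, of which 84 had an entry and 71 were tested. The symbols Lrrc33 and Nrros name the same gene, which had its entry as Lrrc33. Of these 71, 0 passed the limma test with Benjamini-Hochberg adjustment (3 at an unadjusted p under 0.05), 6 were at least 1.5-fold higher in RBP-J KO in both pairs (all genes, 3.86%) and 2 at least 1.5-fold lower (all genes, 3.63%). Their median log2 difference was 0.01, beside -0.05 over all genes tested. Single genes lay on either side of this median.

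Among 23 tested SMAD partners and regulators, 6 were higher and 7 lower in RBP-J KO in both pairs (all genes, 25.1% higher and 34.1% lower), with a median log2 difference of -0.0050. Zfyve9, which encodes SARA, the anchor that brings SMAD2 and SMAD3 to the receptor, was at 22.9 and 20.6 FPKM in RBP-J KO, against 9.78 and 5.81 FPKM in WT. Its groups did not overlap, and it was higher by 2.22-fold in pair 1 and by 3.17-fold in pair 2 (log2 difference 1.41, SE 0.34, limma adjusted p = 0.726, Benjamini-Hochberg). Bambi, a decoy receptor without a kinase that dampens the signal, was at 6.76 and 5.77 FPKM in RBP-J KO, against 13.6 and 13.4 FPKM in WT. These groups did not overlap either, and Bambi was 2.0-fold lower over all libraries (log2 difference -1.0, SE 0.28, limma adjusted p = 0.880).

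Tgif2, a homeobox corepressor of SMADs, was at 4.23 and 4.17 FPKM in RBP-J KO and 1.37 and 2.23 FPKM in WT, low values whose groups did not overlap. Fkbp1a, the FKBP12 protein that binds the type 1 receptor and keeps it inactive, was at 342 and 533 FPKM in RBP-J KO, against 544 and 721 FPKM in WT. It was lower in both pairs, and both RBP-J KO values were below both WT values. Pmepa1, a membrane protein induced by TGF-beta that sequesters SMADs, was chosen after its values were seen. It was at 99.1 and 9.03 FPKM in RBP-J KO, against 41.3 and 1.21 FPKM in WT, with replicate 1 far above replicate 2 in both genotypes, as for Smad7 and Skil.

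Of 8 tested genes of ligands and their activation, 5 were higher and 0 lower in RBP-J KO in both pairs (all genes, 25.1% higher and 34.1% lower). The other 3 did not keep 1 sign in both pairs. The median log2 difference was 0.49 (0.41 in pair 1 and 0.36 in pair 2). Limma called 0 of the 8 genes, also at an unadjusted p under 0.05. Itgav, the integrin chain that helps to release latent TGF-beta, was at 669 and 169 FPKM in RBP-J KO, against 412 and 77.2 FPKM in WT. It was higher by 1.62-fold in pair 1 and by 2.17-fold in pair 2, with replicate 1 above replicate 2 by several fold. Ltbp3, a latent TGF-beta binding protein, was at 16.3 and 39.6 FPKM in RBP-J KO and 11.6 and 28.4 FPKM in WT. Ltbp2 was at 4.30 and 0.85 FPKM in RBP-J KO and at 3.45 and 0 FPKM in WT. Tgfb3 was at 17.6 and 1.92 FPKM in RBP-J KO and 8.75 and 1.5 FPKM in WT. The sign of Ltbp2 and of Tgfb3 in pair 2 thus rests on low values. Tgfb1 thus had the higher level of these 2 ligand genes in every library.

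The activin branch and co-receptors had 1 of 7 tested genes higher and 1 lower in both pairs (all genes, 25.1% higher and 34.1% lower), with a median log2 difference of 0.11. The higher one was Acvr2a, an activin receptor, at 19.3 and 14.6 FPKM in RBP-J KO and 15.9 and 12.0 FPKM in WT. The lower one was Tgfbr3, the co-receptor betaglycan, which was low, at 0.80 and 0.44 FPKM in RBP-J KO and 1.44 and 1.32 FPKM in WT. Acvrl1, the receptor ALK1, was at 96.9 and 102 FPKM in RBP-J KO and 150 and 91.8 FPKM in WT, and Acvr2b at 4.66 and 3.27 FPKM in RBP-J KO and 2.61 and 3.41 FPKM in WT. Neither gene kept 1 sign in both pairs.

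In the branch that does not use SMADs, which runs through kinases and small GTPases, 1 of 9 tested genes was higher and 5 were lower in RBP-J KO in both pairs (all genes, 25.1% higher and 34.1% lower), with a median log2 difference of -0.11. Pard6a, a polarity protein phosphorylated by the type 2 receptor, was at 14.4 and 16.1 FPKM in RBP-J KO and 18.6 and 24.0 FPKM in WT. Map2k6, a p38 kinase kinase, was at 7.15 and 13.8 FPKM in RBP-J KO and 10.2 and 23.6 FPKM in WT. Its relative Map2k3 was at 256 and 215 FPKM in RBP-J KO and 330 and 238 FPKM in WT, and the GTPase gene Rhoa at 1272 and 1084 FPKM in RBP-J KO and 1416 and 1269 FPKM in WT. None of these 4 differed by 1.5-fold in both pairs.

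Genes that TGF-beta raises in many cell types formed the list with the lowest median. Of the 13 tested, 1 was higher and 6 were lower in RBP-J KO in both pairs (all genes, 25.1% higher and 34.1% lower), with a median log2 difference of -0.22 (-0.41 in pair 1 and -0.12 in pair 2). Timp1, a metalloproteinase inhibitor, was at 4.32 FPKM and listed at 0 in RBP-J KO, against 34.6 and 3.30 FPKM in WT. Acta2, smooth muscle actin, was at 5.07 and 5.86 FPKM in RBP-J KO, against 9.26 and 8.27 FPKM in WT, with no overlap, and Tagln at 5.47 and 2.71 FPKM in RBP-J KO, against 7.99 and 4.36 FPKM in WT. Junb, an early AP-1 gene, was at 161 and 92.4 FPKM in RBP-J KO, against 80.6 and 101 FPKM in WT, or 1.99-fold higher in pair 1 and near equal in pair 2.

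Of the 11 tested genes that TGF-beta keeps on in mouse microglia, 8 were higher and 1 was lower in RBP-J KO in both pairs (all genes, 25.1% higher and 34.1% lower), with a median log2 difference of 0.41 (0.57 in pair 1 and 0.23 in pair 2). Cx3cr1, the fractalkine receptor, was at 845 and 746 FPKM in RBP-J KO, against 303 and 30.6 FPKM in WT, and had the only unadjusted p under 0.05 in the list. C1qa, a subunit of complement C1q, was at 8870 and 5758 FPKM in RBP-J KO, against 6450 and 3548 FPKM in WT. Mertk, a receptor for dying cells, was at 366 and 237 FPKM in RBP-J KO, against 245 and 205 FPKM in WT, and Fcrls, an Fc receptor-like scavenger gene, at 1328 and 2353 FPKM in RBP-J KO, against 897 and 1817 FPKM in WT. The groups of these last 3 genes overlapped.

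**Figure D5:**
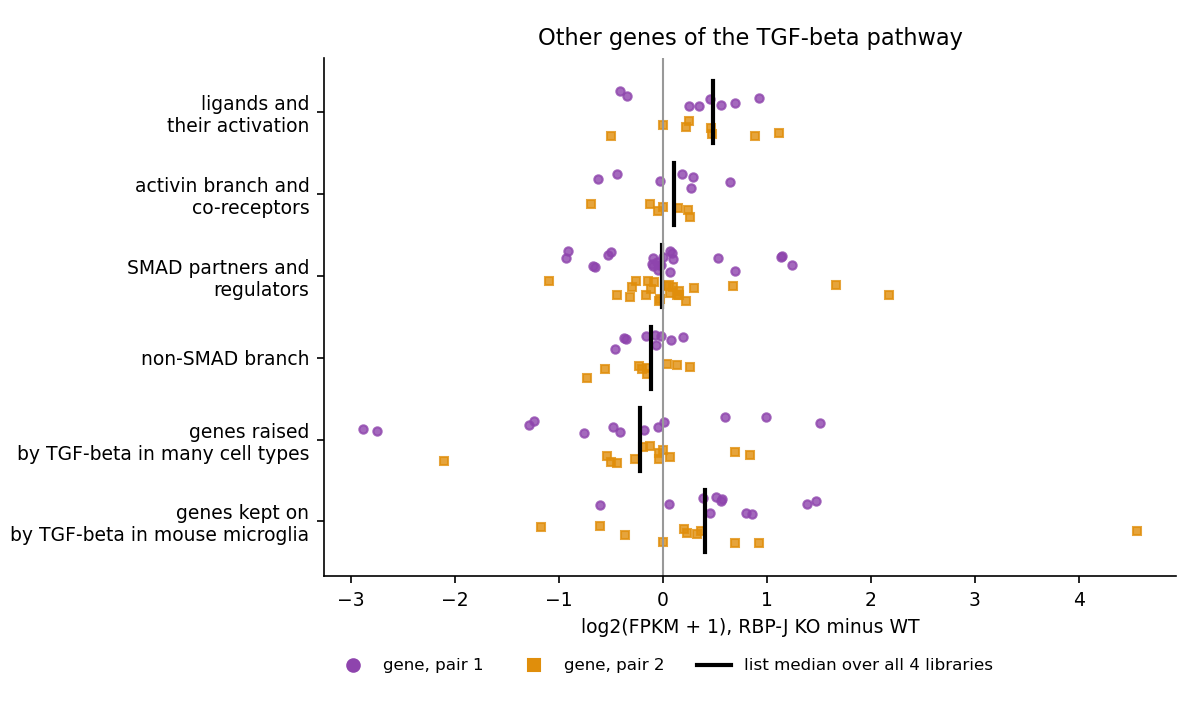
Difference in log2(FPKM + 1), RBP-J KO minus WT, of the tested genes of 6 lists of the TGF-beta pathway, purple circles for pair 1 and orange squares for pair 2, with a black bar at the list's median over all 4 libraries. The list medians lie between -0.22 for genes raised by TGF-beta in many cell types and 0.49 for ligands and their activation.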

How the data were processed

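RNA of 4 libraries (RBP-J KO and WT, 2 each) was used, grouped by the sample titles. Per the submitters' processing notes, the authors aligned reads with TopHat and quantified them with Cufflinks against mm9; tool versions, gene models and scaling are not given in the sources used. The deposited values were read as FPKM, the unit that Cufflinks writes. Replicate 1 tables list genes and replicate 2 tables list transcripts, which were summed per symbol (2 members, Tgfbr2 and Skil, have several); 25 symbols stored as dates were restored by description. Read counts were not used here, so no count model was run and no counting interval is given.

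Tests used log2(FPKM + 1), a scale on which low genes appear to change less than they do. They covered 11851 genes whose mean over the libraries reached 1 FPKM, with limma 3.58.1 in R 4.3.3 (group as the only term, variance trend, two-sided, Benjamini-Hochberg over all genes, threshold 0.05). Fold changes are on this scale and ratios between genes are of FPKM. The fit was run on simulated libraries only to check its estimates of known differences. Those libraries held no effect of replicate number, so they do not test the p-values given here. Figures used Python 3.11.15 and matplotlib 3.10.9. The members and gene lists were chosen with earlier results of these data known. Named list genes are the 4 per list with the smallest p, and the 3 genes nearest each member that differed at least 1.5-fold in both pairs. Alternatives covered the pseudocount, filter, scaling, variance trend, transcript choice, a replicate block and leaving out each library.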

Additional observations from a re-analysis of the deposited data

How the results depend on the processing

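The count of genes past the adjusted threshold was 0 under all 13 alternatives, with between 321 (without RBP-J KO replicate 1) and 1557 genes (replicate block) at an unadjusted p under 0.05. Across genes, libraries of equal number deviated together (r = 0.64), but no label makes the numbers a pairing and only 2 pairs exist. With the replicate block 0 genes passed, the smallest limma adjusted p being 0.0642, with 0.0991 for Tgfbr1 and 0.150 for Smad3.

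The members kept their direction in 115 of 130 recomputed values, and Tgfb1, Tgfbr1, Tgfbr2 and Smad3 did so under all 13 alternatives each. With 1 library left out, where the lone library is assumed to vary like the others, the log2 difference ranged from -0.27 to 0.0016 for Smad2, from -0.15 to 0.062 for Smad4, from -0.52 to 2.02 for Smad7, from -0.42 to 0.34 for Ski, from -0.80 to 2.27 for Skil and from -1.13 to 1.47 for Tgfbi. Upper-quartile scaling and quantile normalization turned Smad4 (0.0020 and 0.0040) and Ski (0.0029 and 0.015), both near 0. The count of 2 members at least 1.5-fold different in both pairs held under the other pseudocounts, scalings and transcript choice; counted in pair 1 alone, a choice made after seeing the data, it was 5, and in pair 2 alone 2. Sequencing depth is unknown, so no limit of detection could be set.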
